A study of Mus musculus with 7 samples.

Results

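The secreted WNT antagonists are the 10 genes Sfrp1, Sfrp2, Sfrp4, Sfrp5, Frzb, Dkk1, Dkk2, Dkk3, Wif1 and Notum, chosen by name, out of 34592 genes counted in mouse group 3 medulloblastoma (G3 MB). All 10 had a row in the count table, and 9 of them passed the filter on low counts, as did 17389 genes in all. RNA was sequenced from 7 tumors, 3 controls and 4 labelled WDR11OE, to find genes whose expression differed when WDR11, a WD repeat protein, was overexpressed. Every tumor grew from tumorsphere line # 19568, which was derived from Trp53-/-; Cdkn2c-/- granule neuron progenitors of the mouse cerebellum carrying a Myc retrovirus with GFP. Before implantation, the cells received lentivirus with human WDR11 behind an EF1 promoter, or with the empty vector, which the labels of the controls give as no treatment. The infected cells were not sorted for the virus and grew in the cortices of CD1 nu/nu mice. These mice lack T cells but keep the other cells of the brain. Pieces of tumor or cell pellets were taken when the mice became moribund. The paper's methods describe the sequenced samples as tumors, whereas its abstract speaks of tumorspheres. Both groups therefore derive from 1 cell line, and the labels give no age for the hosts.

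WNT proteins are lipid-modified ligands that bind Frizzled receptors together with LRP5 or LRP6 and stabilise beta-catenin, or act through other branches with co-receptors such as ROR2. Secreted antagonists act outside the cell. The secreted Frizzled-related proteins (Sfrp1, Sfrp2, Sfrp4, Sfrp5 and Frzb, also called Sfrp3) carry a Frizzled-like domain, and WIF1 binds WNT proteins directly. DKK1 and DKK2 bind LRP5 and LRP6, DKK3 is a divergent member of that family whose role in WNT signalling is not settled, and NOTUM is an enzyme that removes the lipid from WNT proteins. Medulloblastoma has a subgroup driven by WNT signalling, and G3 MB is not that subgroup.

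The upstream sequences of the members are shown because DKK1 is a known target of beta-catenin and the tumors carry a Myc transgene. Of the 10 members, 6 matched a promoter window of RefSeq on GRCm38.p6 (Sfrp2, Sfrp5, Frzb, Dkk1, Dkk2 and Wif1), while Sfrp1, Sfrp4, Dkk3 and Notum did not. The 250 bases before the start were searched on both strands for CTTTGAT or CTTTGAA, the letters bound by TCF/LEF factors, and for CACGTG, the E-box bound by MYC, which reads the same on both strands. Neither motif can overlap the other. The windows below are printed 5' to 3' on the strand of the gene, with motif matches in capitals. They are those of the 3 matched genes that passed the test described further on, Sfrp2 (chr3:83766071-83766320), Sfrp5 (chr19:42202253-42202502) and Wif1 (chr10:121033754-121034003), and that of Dkk1 (chr19:30549497-30549746).
Sfrp2: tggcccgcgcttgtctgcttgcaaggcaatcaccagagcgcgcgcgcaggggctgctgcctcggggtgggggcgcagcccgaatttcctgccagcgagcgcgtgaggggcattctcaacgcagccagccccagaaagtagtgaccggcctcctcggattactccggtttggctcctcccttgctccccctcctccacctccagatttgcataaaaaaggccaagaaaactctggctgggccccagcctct
Sfrp5: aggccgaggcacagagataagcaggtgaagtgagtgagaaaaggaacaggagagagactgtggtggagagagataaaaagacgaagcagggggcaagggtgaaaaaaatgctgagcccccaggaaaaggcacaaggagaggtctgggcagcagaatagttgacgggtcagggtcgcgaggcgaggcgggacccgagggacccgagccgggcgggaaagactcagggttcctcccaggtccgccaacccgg
Wif1: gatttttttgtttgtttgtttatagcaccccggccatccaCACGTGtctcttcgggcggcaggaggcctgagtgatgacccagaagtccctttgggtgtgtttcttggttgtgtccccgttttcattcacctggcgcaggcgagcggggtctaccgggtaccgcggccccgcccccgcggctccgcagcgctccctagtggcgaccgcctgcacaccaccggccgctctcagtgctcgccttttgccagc
Dkk1: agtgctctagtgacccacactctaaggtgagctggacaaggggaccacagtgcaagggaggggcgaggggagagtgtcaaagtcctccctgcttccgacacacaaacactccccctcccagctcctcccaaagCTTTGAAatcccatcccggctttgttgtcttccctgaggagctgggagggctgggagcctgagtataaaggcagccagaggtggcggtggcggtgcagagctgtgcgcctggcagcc
Dkk1 held the only TCF/LEF match, 117 bases upstream of its start, and Wif1 held the only E-box, at 210 bases. No match was found in the windows of Sfrp2, Sfrp5, Frzb and Dkk2. Over all 32851 windows, 7.48% held the TCF/LEF letters and 6.02% the E-box. The GC content of the printed windows was 63.6% in Sfrp2, 59.6% in Sfrp5, 62.8% in Wif1 and 60.8% in Dkk1, beside a median of 52.4% over all windows. Wif1 had 21 CpG pairs in its window, against 16 in Sfrp2, 13 in Sfrp5, 6 in Dkk1 and a median of 6.

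Total counts were 33417175 to 41397427 in the controls and 32116095 to 87141305 in the tumors labelled WDR11OE, so 3 counts corresponded to 0.0715 to 0.0919 and 0.0329 to 0.0924 CPM (counts scaled by library size), respectively. The count table holds a separate row for the human WDR11 transgene. It stood at 2.03, 2.19 and 3.13 CPM in the controls and at 4.38, 2.11, 3.05 and 0.624 CPM in replicates 1 to 4 labelled WDR11OE. The groups overlapped, replicate 4 labelled WDR11OE was the lowest of all tumors, and the log2 fold change was 0.05 ± 0.58 (SE; adjusted p = 0.961, quasi-likelihood F test of edgeR, Benjamini-Hochberg adjustment). Mouse Wdr11 was at 58.3 to 59.3 CPM in the controls and 61.0 to 68.9 CPM in the tumors labelled WDR11OE (log2 fold change 0.16 ± 0.06 SE; adjusted p = 0.0910, same edgeR test). How reads shared by the human and mouse sequences were assigned is not given in the sources used here. The human row thus did not separate the groups at this depth, and every direction below is between tumors as labelled. The libraries of the 2 groups carry separate series of library numbers, so library series and condition cannot be told apart. Of 8 markers of the granule lineage, Atoh1 was at 0 counts in all 7 tumors and Barhl1 did not exceed 0.0237 CPM. The other markers differed widely in level. Over the 7 tumors, Pax6 was at 17.2 to 31.2 CPM, Meis1 at 14.5 to 36.6 CPM and Cntn2 at 1.098 to 21.1 CPM. Neurod1 was near the floor in replicate 1 labelled WDR11OE, with 1 count (0.0237 CPM). It was highest in replicate 4 of that label, at 2.54 CPM. Neither Zic1 (1.76 to 16.8 CPM), lowest in log2 fold change of the list, nor Zic2 (2.57 to 7.33 CPM), the highest, passed the test.

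The antagonists differed in direction. In the tumors labelled WDR11OE, Sfrp1, Sfrp2 and Sfrp5 fell with no overlap with the controls, Sfrp4 rose, and Wif1, by far the most abundant member, fell slightly. Frzb, Dkk2, Dkk3 and Notum did not pass the test, and Dkk1 was close to 0 throughout. With a call requiring an adjusted p under 0.05, a fold of at least 2 and an average log2 CPM above 0, 2 members were called lower (Sfrp1 and Sfrp2) and 1 was called higher (Sfrp4), where 5.55% of all tested genes were called, 3.36% lower and 2.19% higher. At any fold, 4 members were lower and 1 was higher, where 33.9% of all tested genes passed, 15.8% lower and 18.1% higher. Of the 9 tested members, 5 had no overlap between the groups, 4 lower and 1 higher, where 42.7% of all tested genes had none (19.1% lower and 23.5% higher). The median log2 fold change was -0.42 over the 9 members and 0.08 over all genes tested. In bulk RNA, fewer cells of a type and less RNA per cell cannot be told apart.

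**Figure D1:**
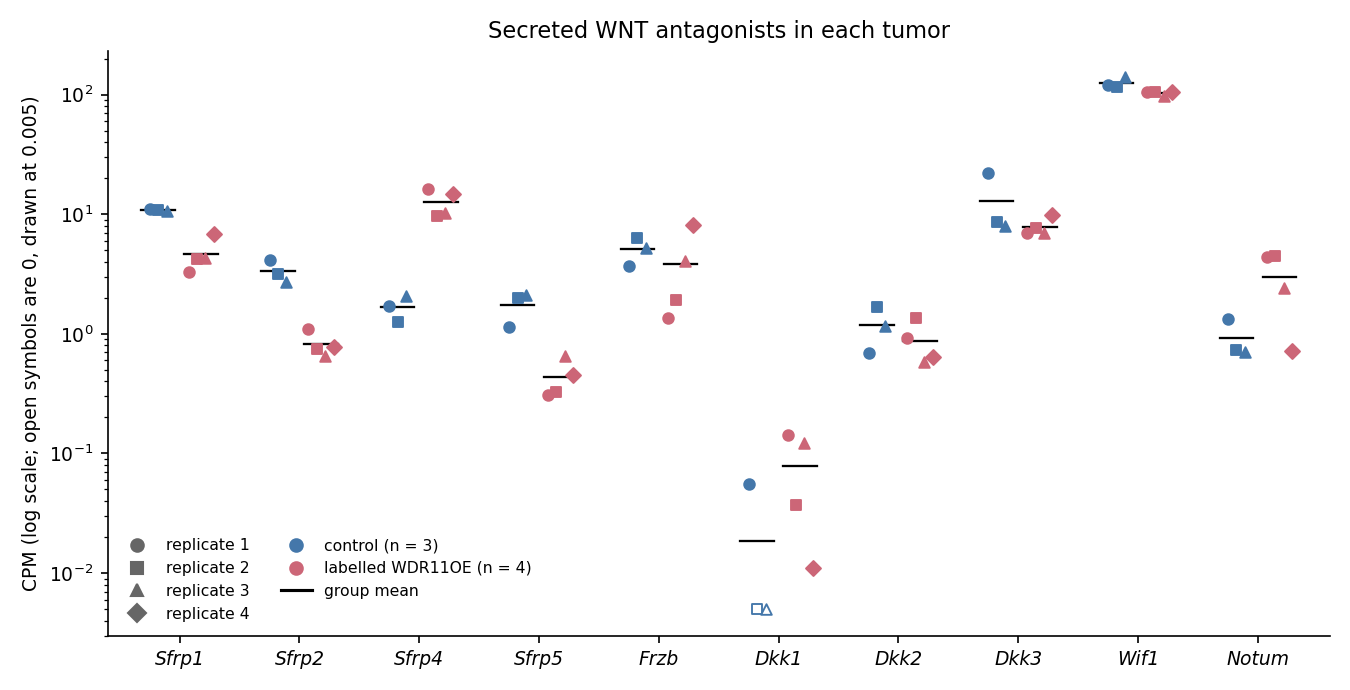
CPM of each of the 10 antagonists on a log axis, with 1 symbol for each of the 3 controls (blue) and the 4 tumors labelled WDR11OE (red), open symbols for 0 and a line at each group mean. Sfrp1, Sfrp2, Sfrp5 and Wif1 are lower and Sfrp4 is higher in every tumor labelled WDR11OE than in any control, and the points of Frzb, Dkk1, Dkk2, Dkk3 and Notum overlap.

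Sfrp4 (ENSMUSG00000021319, NCBIM37 chr13:19714973-19724863, plus strand) stood at 1.70, 1.26 and 2.08 CPM in the controls and at 16.2, 9.63, 10.2 and 14.8 CPM in replicates 1 to 4 labelled WDR11OE. The lowest tumor labelled WDR11OE was well above the highest control. The mean of Sfrp4 rose from 1.68 ± 0.410 (SD, n = 3) to 12.7 ± 3.27 CPM (SD over the 4 tumors). Its log2 fold change was 2.92 ± 0.29 (SE; 95% confidence interval 2.24 to 3.60; adjusted p = 0.00105, edgeR with Benjamini-Hochberg adjustment). The exact permutation test over the 35 splits of the tumors, two-sided, gave p = 0.0286, the smallest it can give. Sfrp4 was also the only member to pass edgeR's test against a 2-fold change (adjusted p = 0.0231). Skeletal muscle markers moved in the same direction, with all 8 passing the test, where 18.1% of all tested genes were higher at any fold. Their summed level was 3.16 to 5.14 CPM in the controls and 44.9 to 132 CPM in the tumors labelled WDR11OE. Among the latter, that sum was 89.7, 56.9, 132 and 44.9 CPM in replicates 1 to 4, and myoglobin (Mb) was at 0 in every control. The part of muscle tissue in the level of Sfrp4 was not tested.

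Sfrp2 (ENSMUSG00000027996, chr3:83570243-83578238, plus strand) showed the opposite pattern. Its level was 4.17, 3.17 and 2.73 CPM in the controls and 1.09, 0.749, 0.647 and 0.778 CPM in replicates 1 to 4 labelled WDR11OE, so the groups were separate and the 4 tumors labelled WDR11OE lay close together. The control mean of 3.36 ± 0.738 (SD) fell to 0.816 ± 0.191 CPM (SD), with a log2 fold change of -2.04 ± 0.26 (SE; 95% confidence interval -2.66 to -1.42; adjusted p = 0.00173, edgeR with Benjamini-Hochberg adjustment; exact permutation p = 0.0286). The gene shares 347 exon bases with Gm16790 on the other strand, a long non-coding RNA with 0 or 1 counts in each control and 1 to 7 counts in each tumor labelled WDR11OE. Because the strand setting of the counting is not stated, reads of the 2 genes cannot be told apart there.

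Sfrp1 (ENSMUSG00000031548, chr8:24521974-24560104, plus strand) was the most uniform member in the controls, at 11.03, 10.9 and 10.7 CPM. Replicates 1 to 4 labelled WDR11OE had 3.27, 4.23, 4.28 and 6.83 CPM, all lower than any control, with replicate 4 nearest to them. The means were 10.9 ± 0.169 (SD) in the controls and 4.65 ± 1.53 CPM (SD) in the other group. The log2 fold change was -1.22 ± 0.25 (SE; 95% confidence interval -1.80 to -0.64; adjusted p = 0.00903, edgeR with Benjamini-Hochberg adjustment), and the exact permutation test gave p = 0.0571.

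Sfrp5 (ENSMUSG00000018822, chr19:42272461-42276742, minus strand) was a low gene that fell without being called. It had 1.14, 2.00 and 2.11 CPM in the controls and 0.308, 0.324, 0.647 and 0.449 CPM in replicates 1 to 4 labelled WDR11OE, which is 41 to 84 counts against 13 to 41 counts. The groups did not overlap in CPM. The log2 fold change was -2.03 ± 0.36 (SE; 95% confidence interval -2.88 to -1.18; adjusted p = 0.00541, edgeR with Benjamini-Hochberg adjustment; exact permutation p = 0.0286). Its average log2 CPM was -0.31, below the limit of 0 that the call requires.

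Frzb (ENSMUSG00000027004, chr2:80252127-80287782, minus strand) did not separate the groups. It was at 3.72, 6.37 and 5.24 CPM in the controls and at 1.35, 1.91, 4.04 and 8.18 CPM in replicates 1 to 4 labelled WDR11OE, which held both the lowest and the highest values. The log2 fold change of -0.40 ± 0.60 (SE; 95% confidence interval -1.80 to 1.005) did not pass the test (adjusted p = 0.655, edgeR with Benjamini-Hochberg adjustment; exact permutation p = 0.371), and without replicate 4 labelled WDR11OE it was -1.08 (adjusted p = 0.0968). Neuron markers had the same order over replicates 1 to 4, with summed levels of 12.5, 28.2, 209 and 684 CPM. So did the 8 astrocyte markers, at 359, 380, 632 and 1065 CPM, and the 7 microglia markers, at 107, 119, 153 and 198 CPM. No other marker list had that order. The oligodendrocyte sums were 167, 107, 127 and 319 CPM. From replicate 1 to replicate 4, the mural sums fell from 192 to 138 CPM and the endothelial sums from 112 to 97.9 CPM. Control replicate 1, the lowest control in Frzb, had the highest neuron and astrocyte sums of the controls. In control replicates 1 to 3 the neuron sums were 441, 147 and 69.0 CPM. The astrocyte sums there were 783, 740 and 519 CPM, and the microglia sums 136, 232 and 136 CPM. None of the 8 neuron markers and 1 of the 8 astrocyte markers (S100b) passed the test, where 33.9% of all tested genes passed. The part of neurons, astrocytes and microglia in the spread of Frzb was not tested.

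Meningeal fibroblasts, the collagen-producing cells of the brain's coverings, are among the host cells that a tumor of the cortex can hold. The summed level of their 9 markers was 3250 to 4016 CPM in the controls and 1271 to 1644 CPM in the tumors labelled WDR11OE, but the markers did not move together. Col3a1, a collagen gene that made up most of that sum, fell by 1.42 on the log2 scale (adjusted p = 0.000917, edgeR with Benjamini-Hochberg adjustment). It was the only one of the 9 to pass the test. The log2 fold change was above 0 for 4 others, namely Dcn (1.05), Lum (0.46), Aldh1a2 (1.17) and Slc6a13 (1.98). It was below 0 for the rest, namely the collagen genes Col1a1 (-1.13) and Col1a2 (-1.04), Ogn (-0.40) and Foxc1 (-0.39). The median of the list was -0.39. At any fold, 15.8% of all tested genes were lower and 18.1% were higher. Of the other marker lists, 2 of 8 endothelial genes (Cdh5 and Flt1), 1 of 6 mural genes and 1 of 3 tested choroid plexus genes were lower. No oligodendrocyte or microglia marker passed in either direction. The part of these cells in the levels of the antagonists was not tested.

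The composition of the Frizzled-related group shifted with these changes. Levels of different genes were compared as CPM per kilobase of exon. The 5 genes together stood at 6.63, 7.29 and 6.96 CPM per kilobase in the controls and at 5.83, 4.45, 5.39 and 8.35 CPM per kilobase in replicates 1 to 4 labelled WDR11OE, so their sums overlapped. Within that sum, Sfrp4 made up 6.32, 4.28 and 7.40% in the controls and 68.6, 53.4, 46.8 and 43.9% in the tumors labelled WDR11OE. Sfrp1 went from the largest share in each control (34.1 to 38.1%) to 12.8 to 21.7%. Sfrp2 had 18.2 to 29.2% of the sum in the controls and 4.33 to 8.68% in the tumors labelled WDR11OE. Frzb ranged from 7.16 to 30.3% in the latter.

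**Figure D2:**
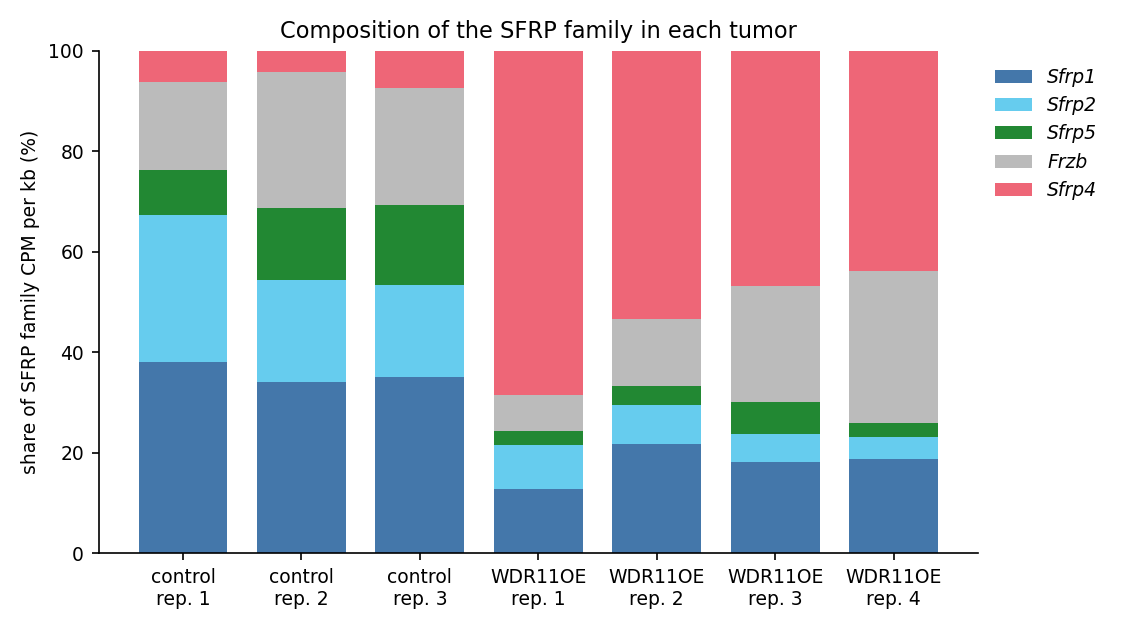
Share of each of the 5 Frizzled-related genes, in percent of their summed CPM per kilobase of exon, as 1 stacked bar per tumor. Sfrp4 takes 4.28 to 7.40% in the 3 controls and 43.9 to 68.6% in the 4 tumors labelled WDR11OE.

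Wif1 (ENSMUSG00000020218, chr10:120471016-120537706, plus strand) was the dominant antagonist of all tumors. Its level was 119, 117 and 140 CPM in the controls and 105, 106, 97.2 and 105 CPM in replicates 1 to 4 labelled WDR11OE, a narrow range that stayed under the lowest control. The control mean of 125 ± 12.4 (SD) fell to 103 ± 4.14 CPM (SD), with a log2 fold change of -0.28 ± 0.08 (SE; 95% confidence interval -0.46 to -0.09; adjusted p = 0.0338, edgeR with Benjamini-Hochberg adjustment; exact permutation p = 0.0286). This small difference was close to the threshold, since leaving out control replicate 3 gave -0.19 (adjusted p = 0.0743) and leaving out any 1 tumor labelled WDR11OE gave adjusted p-values of 0.0514 to 0.0803. Per kilobase of exon, Wif1 accounted for 77.9 to 85.3% of the summed level of the 10 members in every tumor.

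Notum (ENSMUSG00000042988, chr11:120515102-120522489, minus strand) was split among the tumors labelled WDR11OE. It had 1.33, 0.739 and 0.705 CPM in the controls and 4.38, 4.45, 2.43 and 0.723 CPM in replicates 1 to 4 labelled WDR11OE. Replicates 1 to 3 were above every control and replicate 4 lay within the control range. The log2 fold change was 1.69 ± 0.63 (SE; 95% confidence interval 0.21 to 3.18), which did not pass the test after adjustment (adjusted p = 0.0785, edgeR with Benjamini-Hochberg adjustment; exact permutation p = 0.143). Without replicate 4 it was 2.02 (adjusted p = 0.00766, same edgeR test). Replicate 4 was also the tumor with the lowest level of the human WDR11 row, 0.624 CPM, and the highest sum of neuron markers. The human row was at 4.38, 2.11 and 3.05 CPM in replicates 1 to 3 labelled WDR11OE. In control replicates 1 to 3 it was at 2.03, 2.19 and 3.13 CPM. Whether Notum goes with the human row or with the neuron markers was not tested. The exons of Notum overlap 4732444A12Rik by 708 bases and Gm11768 by 210 bases on the other strand. These had at most 2 counts in any control and at most 13 in any tumor labelled WDR11OE, and reads of the strands cannot be told apart.

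**Figure D3:**
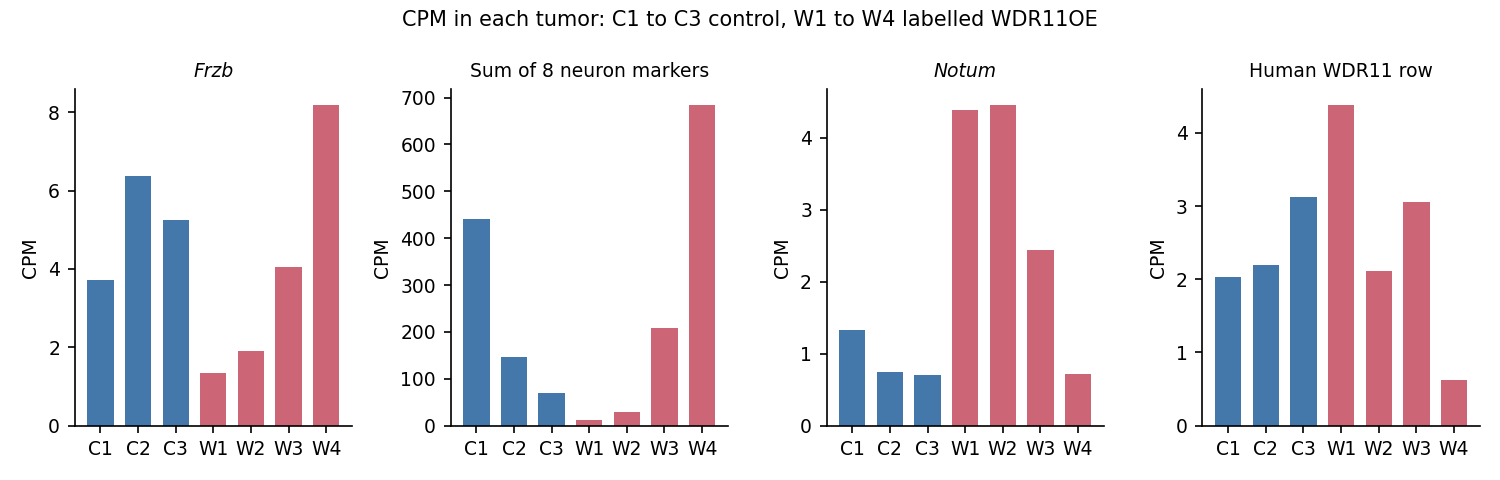
CPM of Frzb, Notum and the human WDR11 row and the summed CPM of 8 neuron markers in each tumor, with blue bars C1 to C3 for the controls and red bars W1 to W4 for replicates 1 to 4 labelled WDR11OE. In W4, Frzb (8.18 CPM) and the neuron markers (684 CPM) are at their highest, while Notum (0.723 CPM) lies within the controls and human WDR11 (0.624 CPM) is at its lowest.

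The Dickkopf genes did not differ past the threshold. Dkk3 (ENSMUSG00000030772, chr7:119259533-119302571, minus strand) stood at 21.9, 8.66 and 7.91 CPM in the controls and at 6.94, 7.61, 7.03 and 9.89 CPM in replicates 1 to 4 labelled WDR11OE, so that control replicate 1 was apart from the other 6 tumors. Its log2 fold change was -0.70 ± 0.37 (SE; 95% confidence interval -1.57 to 0.16; adjusted p = 0.189, edgeR with Benjamini-Hochberg adjustment; exact permutation p = 0.229), and without that control it was -0.08 (adjusted p = 0.798). Control replicate 1 also had the highest sum of neuron markers among the controls, 441 CPM against 147 and 69.0 CPM. Replicate 4 labelled WDR11OE had a higher sum still, 684 CPM, with Dkk3 at 9.89 CPM. The part of neurons in the Dkk3 level of control replicate 1 was not tested. Dkk2 (ENSMUSG00000028031, chr3:131748256-131843257, plus strand) had 0.695, 1.67 and 1.16 CPM in the controls and 0.924, 1.35, 0.585 and 0.646 CPM in replicates 1 to 4 labelled WDR11OE. The groups overlapped, and the log2 fold change was -0.42 ± 0.41 (SE; 95% confidence interval -1.38 to 0.54; adjusted p = 0.480, edgeR with Benjamini-Hochberg adjustment; exact permutation p = 0.371). A level lower by 2-fold lies within the intervals of both Dkk2 and Dkk3.

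Dkk1 (ENSMUSG00000024868, chr19:30620353-30624155, minus strand), the member with the TCF/LEF letters in its upstream window, was the only one that did not pass the filter on low counts. It had 2, 0 and 0 counts in the controls and 6, 3, 4 and 1 counts in replicates 1 to 4 labelled WDR11OE. Summed over tumors, 2 against 14 counts gave a rate ratio of 3.14 with an exact 95% Poisson interval of 0.722 to 28.5, which covers counting error only. A difference in Dkk1 was not detectable at this depth.

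**Figure D4:**
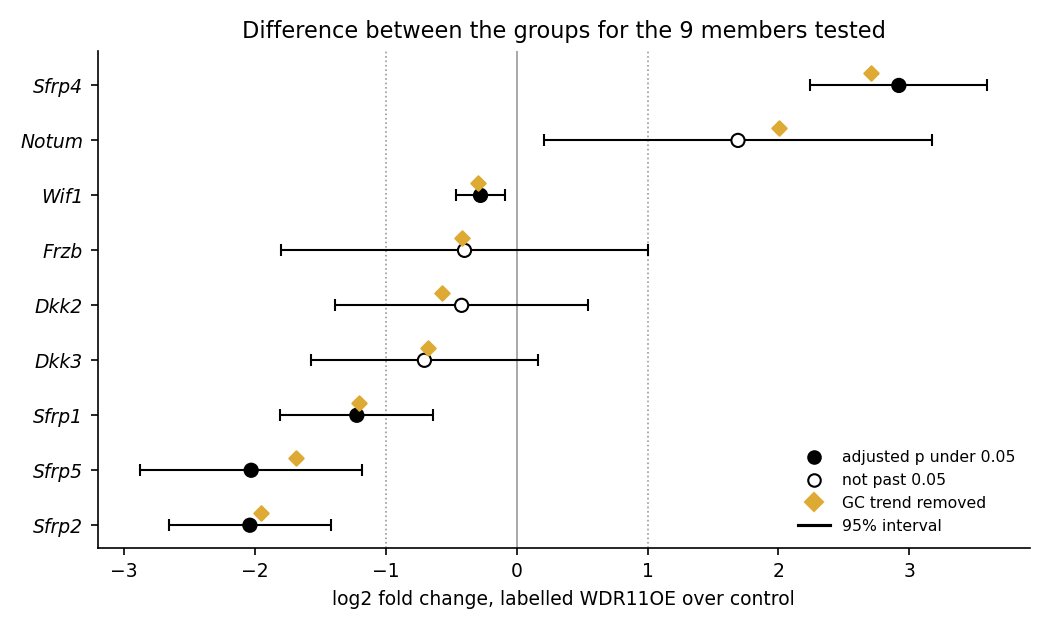
Log2 fold change of the 9 tested antagonists, tumors labelled WDR11OE minus controls, as circles with 95% confidence intervals from the edgeR fit (filled where the adjusted p was under 0.05), with diamonds for the value once the trend with GC content was removed. The interval lies above 0 for Sfrp4 (2.92) and Notum (1.69) and below 0 for Sfrp1 (-1.22), Sfrp2 (-2.04), Sfrp5 (-2.03) and Wif1 (-0.28), and it spans 0 for Frzb, Dkk2 and Dkk3, before any adjustment over genes.

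Ranked by mean CPM per kilobase of exon in the controls, Wif1 (51.6 ± 5.11, SD, n = 3) was followed by Dkk3 (3.82 ± 2.35), Sfrp1 (2.49 ± 0.0386), Frzb (1.58 ± 0.410), Sfrp2 (1.56 ± 0.343), Sfrp5 (0.922 ± 0.281), Sfrp4 (0.415 ± 0.101), Notum (0.385 ± 0.147), Dkk2 (0.318 ± 0.132) and Dkk1 (0.00763 ± 0.0132). Among these neighbours the tumors overlapped between Dkk3 and Sfrp1, between Frzb and Sfrp2, and among Sfrp4, Notum and Dkk2. In the tumors labelled WDR11OE the order was Wif1 (42.6 ± 1.70, SD, n = 4), Sfrp4 (3.14 ± 0.808), Dkk3 (2.34 ± 0.412), Notum (1.25 ± 0.740), Frzb (1.20 ± 0.958), Sfrp1 (1.06 ± 0.349), Sfrp2 (0.379 ± 0.0887), Dkk2 (0.237 ± 0.0940), Sfrp5 (0.227 ± 0.0824) and Dkk1 (0.0323 ± 0.0264). Neighbours in that order overlapped between Sfrp4 and Dkk3, among Notum, Frzb and Sfrp1, and among Sfrp2, Dkk2 and Sfrp5. Beyond their neighbours, the wide range of Frzb also reached into those of Sfrp4, Dkk3 and Sfrp2, and that of Notum into those of Sfrp2, Dkk2 and Sfrp5. Sfrp4 thus moved from the seventh place to the second, although its tumors were not separate from those of Dkk3.

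The genes whose profiles over the 7 tumors were most like those of the called members were found by the root mean square difference of centred log2 CPM among 14516 genes. For Sfrp1 they were Slc35f2, a solute carrier (0.119), and Arid5b, a DNA-binding protein (0.127). For Sfrp2 they were Tgfb1i1, also known as Hic-5 (0.219), and Fam122a (0.303). The nearest to Sfrp4 were Gstt1, a glutathione transferase (0.318), and Gm7429 (0.389), at larger distances than those for Sfrp1. Gstt1 was at 0.429 to 0.667 CPM in the controls and at 2.90 to 3.67 CPM in the tumors labelled WDR11OE.

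The other genes of the pathway, 66 in 7 lists of which 50 were tested, were mostly on the lower side of the test where they passed it. At any fold, 16 were lower and 2 were higher in the tumors labelled WDR11OE, where 15.8% and 18.1% of all tested genes passed. Of the 50 genes, 2 were called, both lower, where 3.36% of all tested genes were called lower. The median log2 fold change over the 50 genes was -0.27, beside 0.08 over all genes tested.

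Receptors that the antagonists compete with or block made up 8 of the 16 lower genes. Of 9 tested Frizzled receptors, 5 fell (Fzd1, Fzd2, Fzd4, Fzd7 and Fzd8) and none rose. Fzd8 was called, with 5.92 to 6.83 CPM in the controls and 2.10 to 3.29 CPM in the tumors labelled WDR11OE (log2 fold change -1.31 ± 0.20 SE; adjusted p = 0.00285, edgeR with Benjamini-Hochberg adjustment). At the other end of the list, Fzd6 had a log2 fold change of -0.11 (adjusted p = 0.661, same edgeR test), and the median was -0.92. Of 7 tested co-receptors, Lrp5, Lrp6 and Ror2 fell. Ror2, a receptor of the beta-catenin-independent branch, was called, with 29.9 to 45.6 CPM against 12.05 to 22.2 CPM (log2 fold change -1.04 ± 0.25 SE; adjusted p = 0.0179 by edgeR, and 0.0569 once the trend with GC content was removed). Ror2 also did not pass the test, at any fold, without control replicate 1 or without replicate 1 labelled WDR11OE. The 5 Frizzled genes, Lrp5 and Lrp6 passed with any 1 tumor left out. Kremen1, a partner of the Dickkopf proteins, was highest of that list at -0.11 (adjusted p = 0.465, same edgeR test).

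Most ligands were too low to be tested. Among 8 tested of 19 WNT ligands, Wnt5a alone passed the test, at 12.3 to 17.8 CPM in the controls and 7.27 to 12.2 CPM in the tumors labelled WDR11OE (log2 fold change -0.77 ± 0.22 SE; adjusted p = 0.0308, edgeR with Benjamini-Hochberg adjustment). Wnt5a was past the threshold only with all tumors or without control replicate 1 or replicate 4 labelled WDR11OE. Wnt7a had the highest log2 fold change of the ligands, 0.71, which did not pass (adjusted p = 0.529, same edgeR test). Wls, which carries WNT proteins to the cell surface, was higher by 0.32 on the log2 scale (adjusted p = 0.0145, edgeR), but by 0.00 once the trend with GC content was removed, and it did not pass without control replicate 2 or replicate 1 or 2 labelled WDR11OE. Also in this list, Porcn, which attaches the lipid that NOTUM removes, was at -0.12 (adjusted p = 0.802, edgeR).

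In the R-spondin axis, which regulates Frizzled turnover, 3 of 8 tested genes fell (Rspo1, Lgr4 and Znrf3). Rspo1 was lowest, at 0.306 to 0.766 CPM in the controls and 0.0710 to 0.219 CPM in the tumors labelled WDR11OE (log2 fold change -2.12 ± 0.50 SE; adjusted p = 0.0158, edgeR with Benjamini-Hochberg adjustment). These levels were near the floor, with 11 to 27 counts in the controls and 3, 7, 4 and 20 counts in replicates 1 to 4 labelled WDR11OE. Rspo1 did not pass without control replicate 2 or 3, nor Lgr4 without replicate 1 labelled WDR11OE, nor Znrf3 without control replicate 1 or replicate 1 or 2 labelled WDR11OE. The receptor gene Lgr5 was highest at 1.35 (adjusted p = 0.311, same edgeR test), with replicate 4 labelled WDR11OE at 19.5 CPM and the other 6 tumors at 1.59 to 6.47 CPM. Of 9 other extracellular inhibitors tested, Igfbp4, Tpbg and Trabd2b (listed as Gm12824) fell and none rose, with Sost lowest at -1.62 (adjusted p = 0.0636) and Dkkl1 highest at 0.82 (adjusted p = 0.683), neither past the same edgeR test. Tpbg did not pass without control replicate 2 or 3, and Trabd2b did not pass without any 1 of the controls or without replicate 1 or 2 labelled WDR11OE. Igfbp4 passed with any 1 tumor left out, but not once the trend with GC content was removed (adjusted p = 0.0510, edgeR), and nor did Trabd2b then (adjusted p = 0.05003).

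The feedback targets of beta-catenin were divided. Axin2, a widely used readout of the pathway that encodes an inhibitor within the cell, rose from 11.95, 8.30 and 8.24 CPM in the controls to 17.2, 15.9, 13.3 and 16.1 CPM in replicates 1 to 4 labelled WDR11OE, without overlap. Its log2 fold change was 0.72 ± 0.18 (SE; adjusted p = 0.0185, edgeR with Benjamini-Hochberg adjustment; exact permutation p = 0.0286). Nkd1, another feedback inhibitor, fell by 0.89 on the log2 scale (adjusted p = 0.0116, edgeR), from 4.84 to 5.67 CPM in the controls to 2.45 to 3.58 CPM. Axin2 did not pass without control replicate 2 or 3, or without replicate 1 or 2 labelled WDR11OE, whereas Nkd1 passed with any 1 tumor left out. Znrf3 also fell, while the 8 other tested genes of this list did not pass the test.

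**Figure D5:**
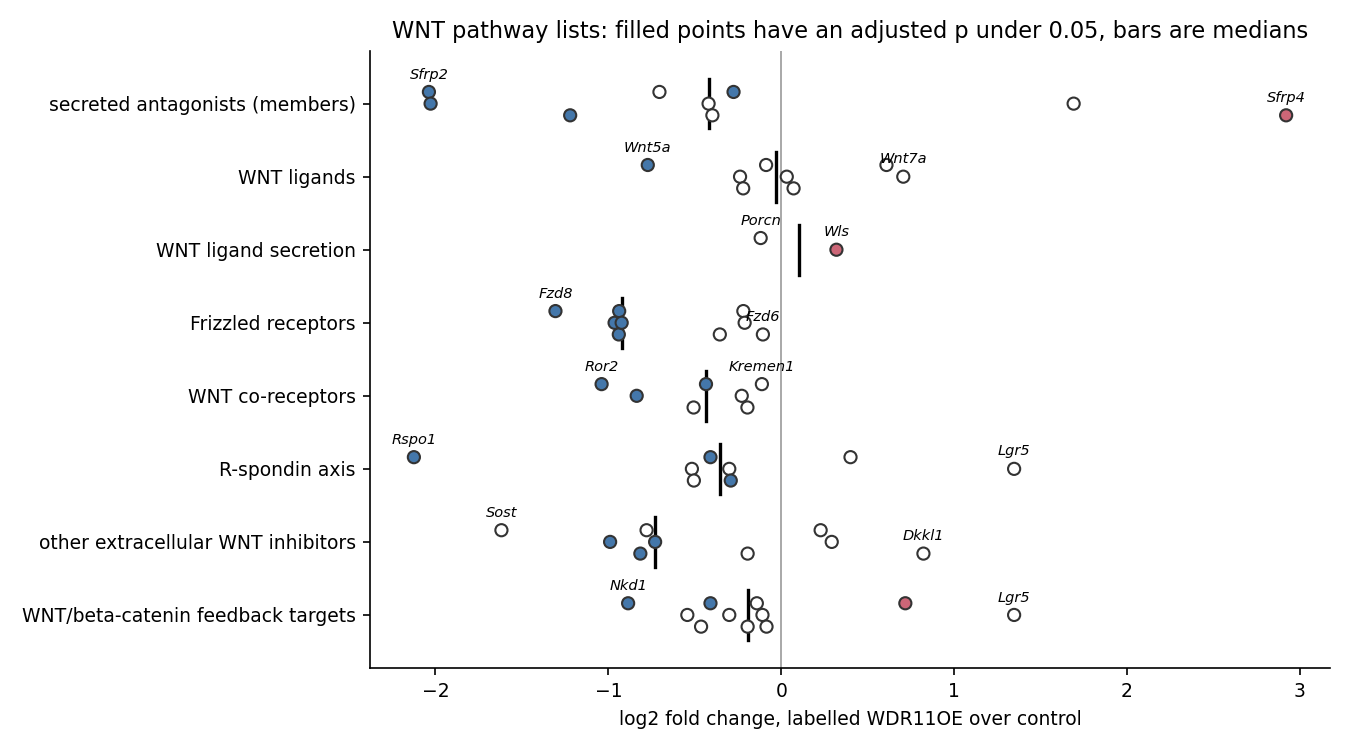
Log2 fold change of every tested gene of the antagonists and of the 7 other WNT lists, tumors labelled WDR11OE minus controls, 1 row per list, with filled points for genes that passed the test and a line at the median. The Frizzled receptors have the lowest median (-0.92), and Sfrp4 (2.92) is the highest point of all lists.

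Across 13092 protein-coding genes, the log2 fold change ran with exon GC content (Spearman's rho -0.40, across genes, which are not independent replicates). Removing that trend left the call of Sfrp4 at a log2 fold change of 2.70, of Sfrp2 at -1.95 and of Sfrp1 at -1.20, and it gave -1.68 for Sfrp5, whose exons have 60.3% GC, and 2.01 for Notum (adjusted p = 0.0553, edgeR), with 59.7% GC.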

How the data were processed

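RNA of 7 tumors (3 control, 4 labelled WDR11OE) was sequenced by the authors, mapped with StrongArm against NCBIM37.67 and counted per gene with HT-seq on GENCODE. The submitters' processing notes name CASAVA 1.7, STAR, BWA, HTSeq and mm9. The deposited counts per gene and tumor are whole numbers without normalization. The paper describes stranded libraries and the labels a TruSeq kit; the strand setting of counting is not given in the sources used here.

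Everything else was computed here in R 4.3.3. Genes were kept by filterByExpr of edgeR 4.0.16 (17389 of 34592), normalized by TMM and compared by the quasi-likelihood F test (two-sided, condition as the only term) with Benjamini-Hochberg adjustment over all tested genes. SE is the size of the log2 fold change divided by the square root of F. Genes were called at an adjusted p under 0.05 with at least a 2-fold difference and a mean log2 CPM (prior count 2) above 0. Single genes were also compared by exact permutation over 35 splits. CPM per kilobase used exon lengths of the NCBIM37 annotation, matched for 33606 genes. The fit was tested on simulated counts with less spread between tumors than in the deposited counts. Alternatives used limma 3.58.1 (voom), DESeq2 1.42.0, other scalings, filters and thresholds, GC and length trends (loess, span 0.5), and left-out or summed tumors. No sample was left out of the main fit.

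The members and gene lists were chosen with earlier results of these data known. The text names the members, Wdr11 and, of each WNT list, every called gene and both ends of the fold changes, with the 2 nearest profiles of each called member. It also names, chosen after their values were seen, the human WDR11 row, the other genes that passed in the WNT lists, Gstt1's levels, and single marker genes. Replicate numbers only name tumors. Since nothing shows that libraries of a group came from separate cultures, p-values measure the spread between these tumors. The intervals of fold changes come from the edgeR fit and include that spread, whereas the Poisson interval of Dkk1 and the floors (3 counts) cover counting error only.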

Additional observations from a re-analysis of the deposited data

Results flagged for a closer look

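Among the 4 tumors labelled WDR11OE, 2 of 31 genes examined had a value set apart from the other 3 by more than Dixon's 95% critical value for 4 samples, and chance flags about 1 in 20 groups. Wif1 was at 97.2 CPM in replicate 3, below the other 3 at 105 to 106 CPM (gap of 0.978 of the range). Fzd7, a Frizzled receptor, was at 45.8 CPM in replicate 4, below 58.6 to 59.0 CPM in the other 3 (0.966 of the range).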

How the results depend on the processing

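No member's fold change changed direction. The median log2 fold change of all genes tested, 0.08, was -0.01 without replicate 4 labelled WDR11OE. Of 21 alternatives, Sfrp4 kept its side of the threshold in 21, Sfrp1, Sfrp2 and Sfrp5 in 20, Frzb, Dkk2 and Dkk3 in 21, Notum in 19 and Wif1 in 13. Sfrp1, Sfrp2 and Sfrp5 were lost only in the test against a 2-fold change (adjusted p = 1, 0.0884 and 0.240 by edgeR), which asks more than a change, so that 0 members were called lower and 0 were lower at any fold. Notum passed in DESeq2 (log2 fold change 1.67, adjusted p = 0.0325) and without replicate 4 labelled WDR11OE, and each made 2 members called higher and 2 higher at any fold, and leaving out tumors gave 1 to 2. Wif1 was lost without control replicate 3, without each tumor labelled WDR11OE, with replicates 1 and 2 of that label summed, because their titles share a number (adjusted p = 0.0691), at an adjusted p under 0.01 and against a 2-fold change. Sfrp5 was called, making 3 members lower, where the limit on average expression was dropped or, chosen after seeing the data, computed as edgeR does. In the WNT lists, 16 lower genes became 7 at an adjusted p under 0.01 and 0 against a 2-fold change, and 11 to 17 with a tumor left out. The 2 higher genes became 1 with no filter on low counts, 1 (Axin2) with the GC trend removed, and 0 at an adjusted p under 0.01, against a 2-fold change and with replicates 1 and 2 summed, and 0 to 2 with a tumor left out. The cause was not tested. Over all genes, 584 lower and 381 higher calls became 26 and 33 against a 2-fold change, and 686 and 614 without the limit on average expression. At any fold, 2744 lower and 3150 higher genes became 1552 and 1549 at an adjusted p under 0.01 and 38 and 44 against a 2-fold change, while the higher ones became 2093 with no filter, 1938 with the GC trend removed, 1629 with replicates 1 and 2 summed and 1560 to 2986 with a tumor left out. Under the other scalings, that median was 0.04 to 0.12. A prior count of 0.5 changed no side of the threshold in the permutation tests. No paired analysis was possible because the replicate numbers only name tumors. Depth limits Dkk1, at or near the floor of 3 counts in most tumors.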
